A study of Mus musculus with 4 samples.

Results

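Cell cycle genes were described across 4 microarrays of mouse dendritic cells of the conventional type 1 (cDC1), which are known for presenting antigen of dead cells to CD8 T cells. The set held 36 genes chosen by symbol, 15 of DNA synthesis (S phase), 20 of the G2 phase and mitosis (G2/M), and Cdkn1a, an inhibitor of the cycle. Of these, 34 had a probe set of their own and are described here, among 17133 named protein-coding genes, while Ccnb1 and Ccne2 were not analysed here for want of one. The arrays held XCR1-deficient (KO) cells given LPS (100 ng/ml), the lipopolysaccharide that Toll-like receptor 4 senses on bacteria, together with recombinant mouse XCL1 (100 ng/ml), KO cells given LPS alone, and wild-type (WT) cells given each of the same treatments. XCL1 is the chemokine ligand of XCR1. All 4 groups had received LPS, so no array shows cells without it. All came from C57BL/6 mice aged 10 weeks, with 1 array a group, so the differences below come without error, p-value or check in a second sample, and the number of arrays limits the precision. The sources used here do not say whether animals were pooled, where the deletion lies, from which tissue the cells came or how long they were treated.

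In a dividing cell, cyclin-dependent kinases drive the passage from one phase to the next. E2F factors switch on the S phase genes, among them the MCM helicase that unwinds DNA, the sliding clamp PCNA and the enzymes that make deoxynucleotides. The G2/M genes follow later through the CHR and CCAAT promoter elements, and encode the mitotic cyclin and CDK1, the kinases of the spindle checkpoint, the motors and scaffolds of the spindle, and proteins of the kinetochore. The CDK inhibitor p21, product of Cdkn1a, holds the cycle back and is a classic target of p53. Differentiated conventional DCs divide little compared with their precursors.

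The promoters are shown because E2F motifs are known from S phase genes, and CHR and CCAAT motifs from G2/M genes. Of the 36 genes, 30 had at least 1 window in the RefSeq promoter table (GRCm38.p6), which runs from 250 bases before to 50 after a start. The E2F motif was searched as TTTCCCGC, TTTCGCGC, TTTGCCGC or TTTGGCGC on both strands. It lay in 5 of 14 windows of S phase genes (35.7%), in 1 of 16 of G2/M genes (6.25%), and in 2.85% of 21262 windows of protein-coding genes. The CHR motif, TTTGAA or TTCGAA on both strands, lay in 12 of 16 G2/M windows (75%), in 2 of 14 S phase windows (14.3%) and in 17.6% of all windows. The CCAAT motif lay on either strand in 14 of 16 G2/M windows (87.5%), in 9 of 14 S phase windows (64.3%) and in 38.2% of all. A match is only a string of letters in a window. The upstream 250 bases are printed for the 3 G2/M genes that had a window and the largest difference between the genotypes (by the smaller of both pairs), and for the S phase gene first by that measure, with motif letters in capitals.

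On GRCm38.p6, the Mcm6 stretch is chr1:128359706-128359955 (minus strand), that of Kif11 chr19:37376132-37376381, that of Cenpe chr3:135212313-135212562 and that of Nusap1 chr2:119618048-119618297, the last 3 on the plus strand. All lie just upstream of the start, 5′ to 3′.
Mcm6: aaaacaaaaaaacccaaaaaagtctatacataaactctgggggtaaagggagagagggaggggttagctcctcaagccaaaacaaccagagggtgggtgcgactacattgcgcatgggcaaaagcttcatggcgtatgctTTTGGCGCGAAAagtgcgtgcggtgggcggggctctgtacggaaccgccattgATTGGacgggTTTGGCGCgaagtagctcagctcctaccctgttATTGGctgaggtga
Kif11: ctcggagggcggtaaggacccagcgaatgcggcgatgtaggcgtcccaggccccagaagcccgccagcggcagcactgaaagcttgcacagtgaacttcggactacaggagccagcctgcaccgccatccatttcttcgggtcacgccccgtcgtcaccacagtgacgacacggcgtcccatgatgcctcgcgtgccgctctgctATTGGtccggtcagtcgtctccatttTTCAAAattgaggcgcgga
Cenpe: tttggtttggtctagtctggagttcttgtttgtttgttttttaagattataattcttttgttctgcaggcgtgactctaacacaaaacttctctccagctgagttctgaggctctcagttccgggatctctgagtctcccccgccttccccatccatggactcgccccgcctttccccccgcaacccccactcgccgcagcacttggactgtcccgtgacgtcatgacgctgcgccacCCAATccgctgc
Nusap1: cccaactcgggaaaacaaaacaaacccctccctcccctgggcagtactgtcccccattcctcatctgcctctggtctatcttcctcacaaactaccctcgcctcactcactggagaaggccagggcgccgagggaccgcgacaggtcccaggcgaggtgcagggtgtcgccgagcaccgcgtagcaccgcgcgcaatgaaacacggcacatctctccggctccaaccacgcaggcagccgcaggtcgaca
The Mcm6 stretch holds E2F motifs 110, 106 and 47 bases before the start, the first pair overlapping on opposite strands, and CCAAT motifs 57 and 14 bases before it. In Kif11 a CCAAT motif and a CHR motif, both on the opposite strand, begin 45 and 19 bases before the start. Cenpe holds 1 CCAAT motif, 12 bases before the start, and Nusap1 holds none of the 3 motifs in its window.

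The signals, log2 values summarised by RMA, were close to each other on the 4 arrays, with Pearson correlations over 10931 genes of 0.983 to 0.993. These 10931 genes reached 5.43, the middle of all deposited values, on 1 array or more, as did all 34 members. Bub1 reached this limit on 1 KO array and 1 WT array and Birc5 on all but the WT array with LPS. A gene is called at a 1.5-fold difference (0.58 on the log2 scale) between 2 arrays. Xcr1, the targeted gene, gave 5.11 and 5.54 on the KO arrays with LPS and XCL1 and with LPS, against 7.19 and 6.42 on the WT arrays. Of the cDC1 markers, Irf8 gave 10.01 to 10.16, Cd8a 9.53 to 9.69, Batf3 6.78 to 6.98 and Tlr3 6.86 to 7.14. Itgae lay below the limit on each array. The 11 cDC1 markers past the limit, Xcr1 among them, had medians of KO minus WT of -0.15 with LPS and XCL1 and -0.13 with LPS. Above 0 were 3 and 4 of the 11, against 43.1% and 39.7% of all genes. The labels give all mice as female. Xist, which is expressed from an inactive X, gave 4.57 and 4.64 in KO against 7.91 and 7.95 in WT, and the Y-linked genes Eif2s3y, Kdm5d and Uty gave 7.01 to 8.89 on all arrays. The Xist values of the WT arrays fit the label and those of the KO arrays go against it, so a difference in sex and one in genotype cannot be told apart. Whether the Y-linked probe sets also read related X-linked genes was not tested, so their signals do not show sex. Both KO arrays share a prefix in their array names and both WT arrays share another, and whatever the prefix marks cannot be told apart from genotype either.

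No cell cycle gene reached 1.5-fold in any comparison. For KO minus WT the members called were 0 of 34 with LPS and XCL1, where 3.44% of all genes were called, and 0 of 34 with LPS, where 1.99% were. For XCL1 added to LPS they were 0 of 34 in KO and 0 of 34 in WT, against 0.979% and 0.54% of all genes. For the difference between the XCL1 effects in KO and WT they were 0 of 34, against 2.86%. At such backgrounds about 1 member or none would be called in a set of this size, so a count of 0 is near the background. Of the G2/M and the S phase members, Mki67 and Pcna had the narrowest range over the arrays. Mki67, the gene of the Ki-67 antigen, gave 9.97 and 9.85 on the KO arrays with LPS and XCL1 and with LPS, against 9.88 and 9.97 on the WT arrays. Pcna, the replication clamp, gave 9.46 and 9.39 in KO against 9.41 and 9.45 in WT. The KO and WT values of both genes overlapped, within a range of 0.12 for Mki67 and 0.07 for Pcna.

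**Figure D1:**
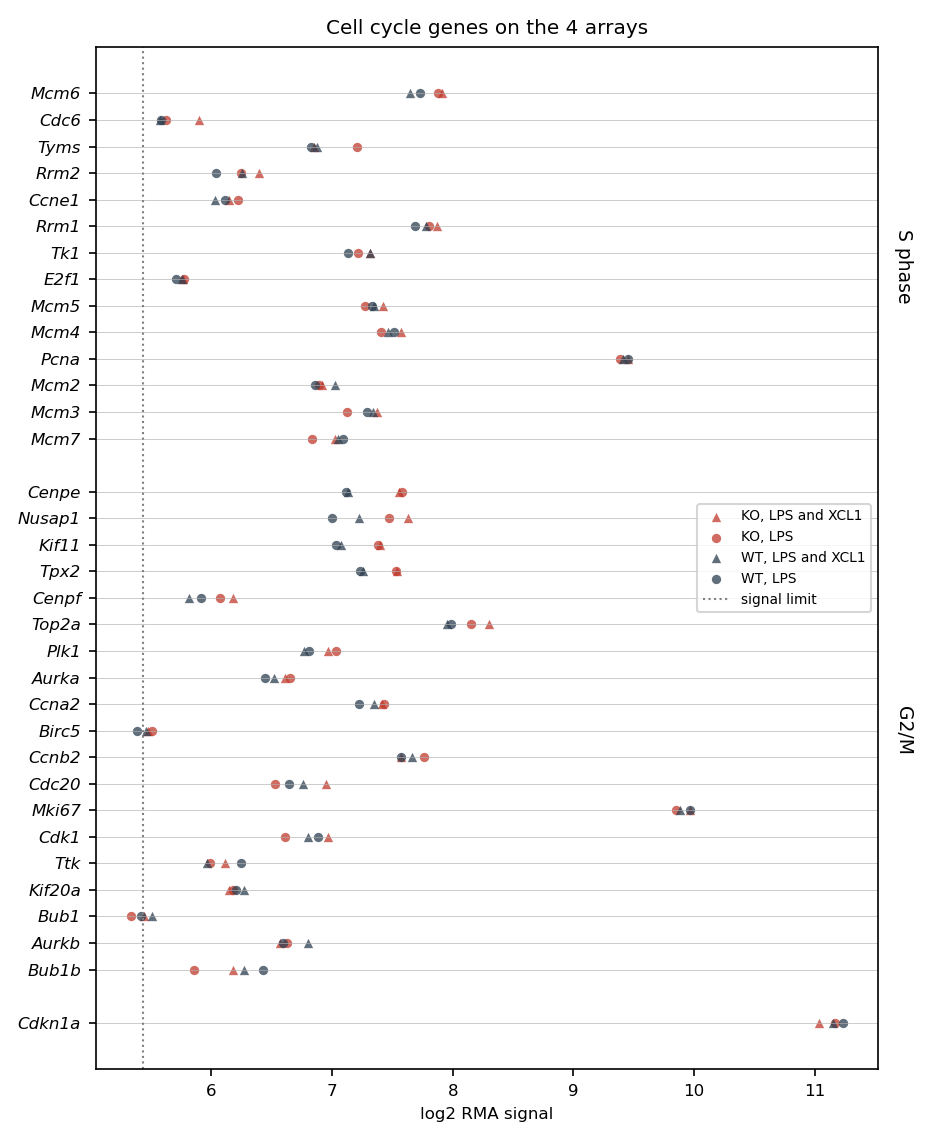
Log2 RMA signal (x axis) of the 34 measured cell cycle genes (y axis, S phase above G2/M, each ordered by the mean difference KO minus WT) on the 4 arrays. Red marks are KO and dark marks WT arrays, triangles have XCL1, each mark is 1 array with no error, and the dotted line is the signal limit of 5.43. The marks of a gene lie within 0.07 to 0.63 of each other. Both KO marks lie above both WT marks in 15 of the 34 genes, Cenpe, Nusap1, Kif11 and Tpx2 among them, and below in 3. Of all genes 18.8% lay above and 33.2% below in this way.

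The comparison of KO with WT asked whether loss of the receptor goes with a different proliferative state. Small differences above 0 were common among the members, while over all genes the balance lay below 0 in the deposited values. The balance of all genes depended on the scaling, since centring turned the median of all genes to 0.06 with LPS and XCL1 and 0.05 with LPS. In both genotype pairs 17 of 34 members (50%) were above 0 and 5 (14.7%) below, against 25.3% and 42.4% of all genes. The other 12 (35.3%) had opposite signs, against 32.3% of all genes. Both KO arrays lay above both WT arrays in 15 of 34 members (44.1%, against 18.8% of all genes) and below them in 3 (8.82%, against 33.2%). The 3 were Mcm7, Bub1b and Kif20a. The pairs share no array, but it is not known here if the 2 arrays of a genotype share a cell preparation. Over the 34 members the 2 genotype differences correlated with Pearson's r of 0.47, and over all genes with 0.52, a description over genes that share arrays.

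By the smaller of both genotype differences, Cenpe, Nusap1, Kif11 and Tpx2 came first among the members. Cenpe, a kinesin of the kinetochore, gave 7.55 and 7.58 in KO with LPS and XCL1 and with LPS, against 7.13 and 7.12 in WT. The arrays of each genotype lay within 0.03 of each other, and KO exceeded WT by 0.42 and 0.46, or 1.34-fold and 1.38-fold. Nusap1, a microtubule-binding protein of the spindle, gave 7.63 and 7.47 in KO against 7.22 and 7.0 in WT, with differences of 0.41 and 0.47. Kif11, the motor that pushes spindle poles apart, gave 7.39 and 7.38 in KO against 7.08 and 7.03 in WT, with differences of 0.32 and 0.35. Tpx2, the activator of Aurora A on the spindle, gave 7.54 and 7.53 in KO against 7.26 and 7.23 in WT, with differences of 0.28 and 0.30. Both KO arrays lay above both WT arrays in the 4 genes, as in 15 of 34 members (44.1%) and 18.8% of all genes. The 4 were ranked by the genotype differences themselves, so the lack of overlap adds little. The spread between probe sets of a gene was an SD of 0.224 with LPS and XCL1 and 0.214 with LPS over 431 genes. The same 4 genes were the members higher beyond it in both pairs. That is 4 of 34 (11.8%), against 5.25% of all genes that were higher beyond it in both pairs, and 0 members were lower beyond it, against 9.62%. At a lower threshold, 0.32 on the log2 scale, Cenpe and Nusap1 were higher in both pairs, 2 of 34 (5.88%) against 2.4% of all genes. With LPS and XCL1, 4 of 34 were higher by it (Top2a, Cenpe, Cenpf and Nusap1, against 7.99% of all genes) and 0 lower (against 11.8%), with Kif11 and Cdc6 just under it. With LPS, 4 were higher (Tyms, Kif11, Cenpe and Nusap1, against 5.32%) and 1 lower (Bub1b, against 9.5%).

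Other G2/M genes showed smaller or uneven differences. Top2a, the topoisomerase that untangles chromosomes, gave 8.30 and 8.15 in KO against 7.95 and 7.98 in WT, and Cenpf, a kinetochore protein, gave 6.18 and 6.07 in KO against 5.82 and 5.91 in WT. Genotypes did not overlap, and both genes were higher by at least 0.34 with LPS and XCL1 and by about 0.16 with LPS. The mitotic kinase Plk1 differed by 0.20 and 0.22, Aurka by 0.10 and 0.21, the S and G2 cyclin gene Ccna2 by 0.07 and 0.21, and the survivin gene Birc5 by 0.02 and 0.13, none of them with overlapping genotypes. Bub1b and Bub1 were below 0 in both pairs. Bub1b, whose product BubR1 holds back anaphase, gave 6.18 and 5.86 in KO against 6.27 and 6.43 in WT. Its difference was -0.09 with LPS and XCL1 and -0.57 with LPS, the value nearest to 1.5-fold among the members, and the genotypes did not overlap, with the KO array with LPS furthest from the rest. Bub1, the checkpoint kinase beside it, differed by -0.07 and -0.08. The checkpoint kinase Ttk (0.15 and -0.26), Cdk1 (0.16 and -0.27), the anaphase activator Cdc20 (0.19 and -0.12) and Mki67 (0.09 and -0.12) had opposite signs in the pairs, above 0 when XCL1 was present and below 0 with LPS alone. Ccnb2, a mitotic cyclin gene, had the opposite order (-0.09 and 0.19), as did the Aurora B gene Aurkb (-0.23 and 0.03). Kif20a, a kinesin of cell division, differed by -0.12 and -0.02.

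S phase genes lay nearer to 0. Of 14, 7 were above 0 in both pairs, 1 below, and 6 had opposite signs. Mcm6, a subunit of the replicative helicase, gave 7.91 and 7.87 in KO against 7.64 and 7.73 in WT, differing by 0.27 and 0.15. The other helicase subunits did not follow it. Mcm7 differed by -0.03 and -0.26, Mcm3 by 0.03 and -0.16, Mcm4 by 0.11 and -0.11, Mcm5 by 0.08 and -0.06, and Mcm2 by -0.11 and 0.03. Both subunit genes of ribonucleotide reductase were above 0, Rrm1 by 0.09 and 0.12 and Rrm2 by 0.14 and 0.20, though the Rrm2 signals of KO with LPS and of WT with LPS and XCL1 met at 6.24 and 6.25. A second probe set of Rrm2 gave 2.98 to 3.25, far below the limit. Cdc6, which loads the helicase, was at 5.90 and 5.62 in KO against 5.58 and 5.58 in WT, so that 1 array, KO with LPS and XCL1, stood above the rest. Tyms, the thymidylate synthase gene, gave 6.85 and 7.21 in KO against 6.88 and 6.82 in WT. Here too 1 array stood apart, KO with LPS, and the differences were -0.03 and 0.39. Ccne1, the cyclin E gene of S phase entry, differed by 0.11 in both pairs, the thymidine kinase gene Tk1 by 0.00 and 0.09, and the transcription factor gene E2f1 by 0.00 and 0.07.

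**Figure D2:**
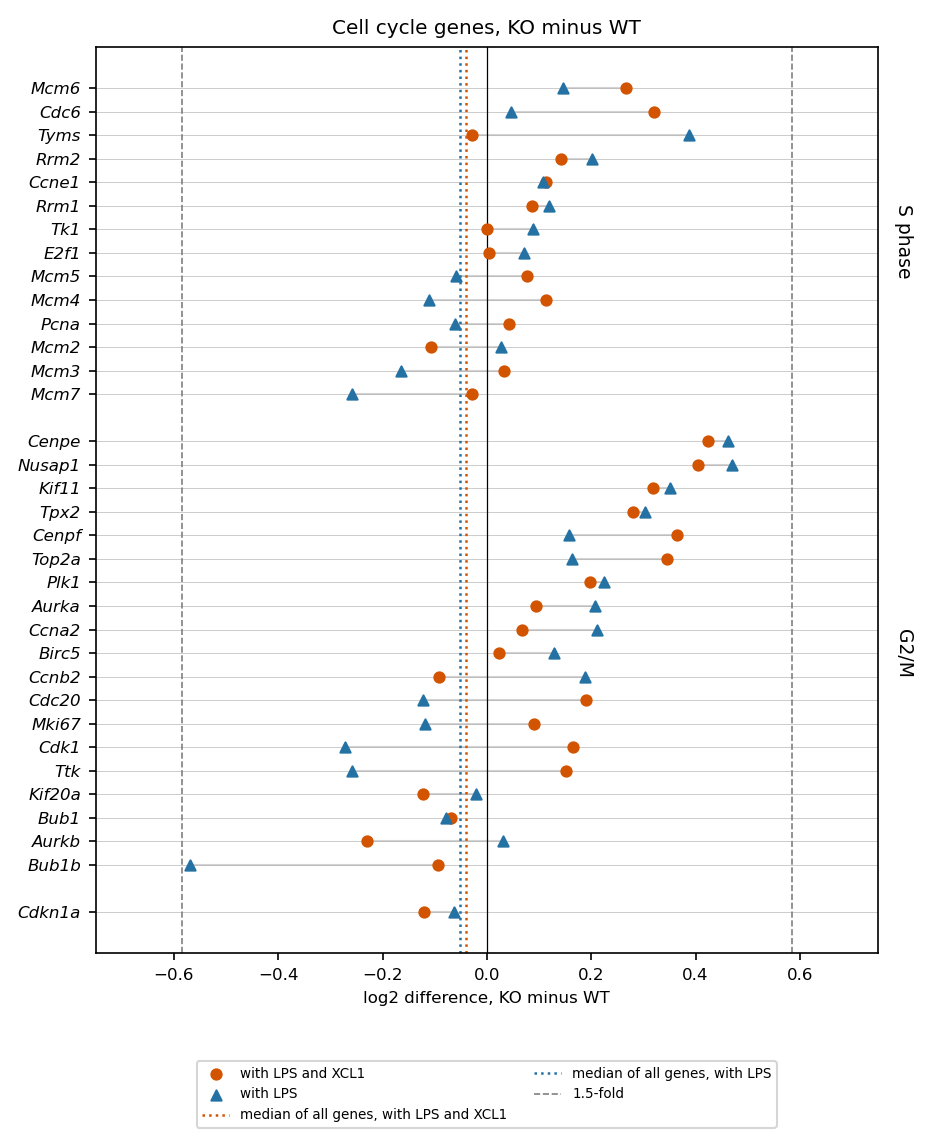
Log2 difference KO minus WT (x axis) of each measured cell cycle gene (y axis), circles with LPS and XCL1 and triangles with LPS, each a difference between 2 single arrays. Dotted lines are the medians of 10931 genes (-0.04 and -0.05) and dashed lines mark 1.5-fold. All marks lie inside 1.5-fold, and Cenpe, Nusap1, Kif11 and Tpx2 lie to the right in both pairs.

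Set side by side, G2/M genes had a larger median difference than S phase genes in both genotype pairs. With LPS and XCL1 the medians of KO minus WT were 0.15 for 19 G2/M genes and 0.06 for 14 S phase genes, against -0.04 for all genes. With LPS they were 0.16 and 0.06, against -0.05. The G2/M median exceeded the S phase median by 0.09 and 0.10. Above 0 were 14 and 12 of 19 G2/M genes (with LPS and XCL1, and with LPS) and 11 and 9 of 14 S phase genes, against 43.1% and 39.7% of all genes. Above the median of all genes were 14 and 13 of the G2/M genes (73.7% and 68.4%) and 13 and 9 of the S phase genes (92.9% and 64.3%). The larger G2/M median thus did not come with a larger share of genes above 0. Relative to the median of all genes, the G2/M medians were 0.19 and 0.21 and the S phase medians 0.10 and 0.11. Setting the median gene of every array to the same value added 0.10 to every genotype difference in both pairs, so values between -0.10 and 0 turn positive with that scaling. With 1 array a group the difference between the 2 lists was not tested. In bulk RNA a larger share of dividing cells in KO and more of these transcripts per cell cannot be told apart.

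Larger lists of the same pathways, which do not contain the members, repeated the higher median of mitosis genes but not the S phase medians above 0. Of 48 further mitosis genes past the limit, 33 were above 0 with LPS and XCL1 and 37 with LPS, with medians of 0.15 and 0.10. Of all genes 43.1% and 39.7% were above 0, with medians of -0.04 and -0.05. Among them, Knl1, a kinetochore scaffold gene, was called higher in KO with LPS and XCL1 (0.71, and 0.18 with LPS), and Pttg1, the securin gene, with LPS (0.60, and 0.19 with LPS and XCL1). That is 1 of 48 in each pair, where 1.65% and 0.988% of all genes were called higher. Of 38 further DNA replication genes, 17 and 10 were above 0, with medians of -0.03 and -0.13, where the S phase members had 0.06 and 0.06. With LPS the median of these 38 lay below that of all genes. Timeless, which travels with the replication fork, was the 1 gene called, higher in KO with LPS and XCL1 (0.83, and 0.39 with LPS). That is 1 of 38, where 1.65% of all genes were called higher. The 17 genes of G1 cyclins, their kinases and E2F factors had medians of -0.10 and -0.09, with E2f6, a repressor of the E2F family, called lower in the pair given LPS alone (-0.86, and -0.39 with LPS and XCL1). That is 1 of 17, where 1.01% of all genes were called lower. The 14 other CDK inhibitors and pocket proteins had medians of -0.02 and -0.02 and none called (against 3.44% and 1.99% of all genes), with Cdkn2b closest at -0.58 and -0.26.

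**Figure D3:**
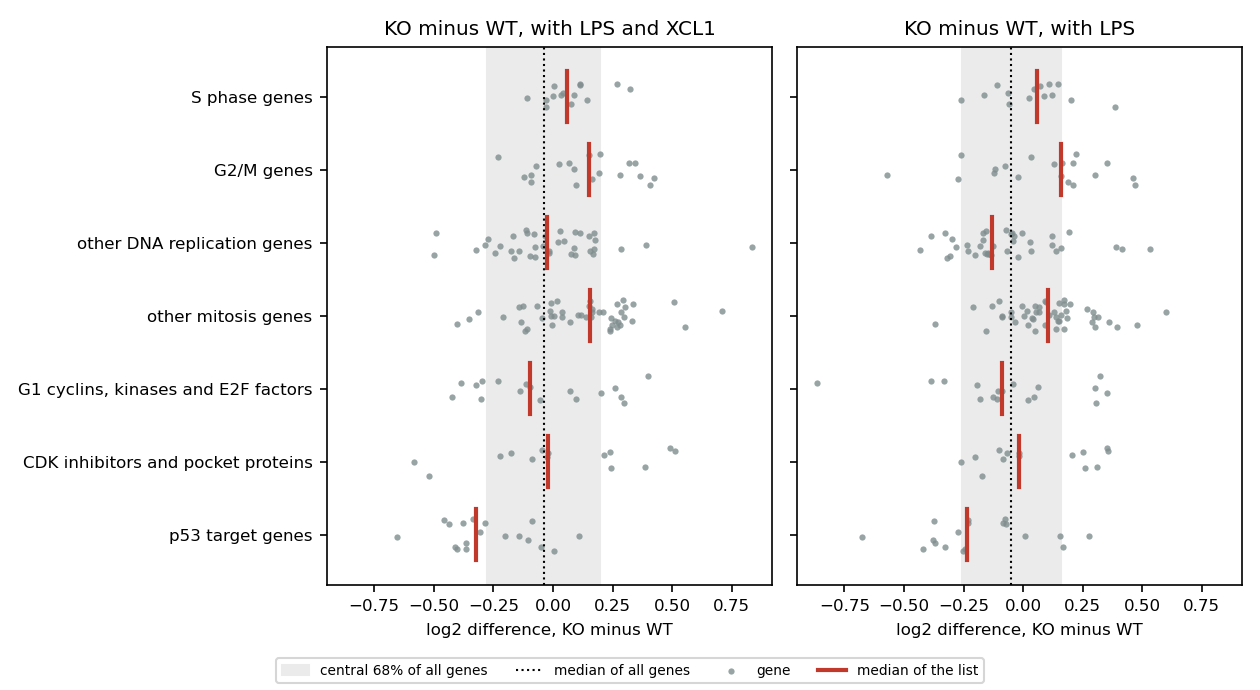
Log2 difference KO minus WT (x axis) of genes in 7 lists of the cell cycle (y axis), with LPS and XCL1 on the left and with LPS on the right. Each point is a gene past the signal limit, red bars are list medians, the dotted line is the median of all genes and the grey band their central 68%. The medians of the S phase, G2/M, other mitosis, and CDK inhibitor and pocket protein lists lie to the right of the dotted line in both panels. Those of the p53 target list and the list of G1 cyclins, kinases and E2F factors lie to the left in both. That of the other DNA replication list lies to the right in the left panel and to the left in the right panel.

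Cdkn1a, the p21 gene, differed little. Its signals were 11.03 and 11.17 in KO with LPS and XCL1 and with LPS, against 11.15 and 11.23 in WT, with differences of -0.12 and -0.06, near the -0.04 and -0.05 of all genes. A list of 18 other p53 target genes past the limit lay lower in KO, with medians of -0.32 and -0.24, and 2 and 4 of the 18 were above 0, against 43.1% and 39.7% of all genes. Of the 18, 1 was called lower in each pair (1.79% and 1.01% of all genes were). It was Plk2, a kinase of the Polo family, which gave 7.37 and 7.20 in KO against 8.03 and 7.87 in WT, with no overlap and differences of -0.66 and -0.68. Tnfrsf10b, a TRAIL receptor gene, differed by -0.40 and -0.42, Ccng1, the cyclin G1 gene, by -0.37 and -0.24, and Rrm2b, the p53-inducible subunit of ribonucleotide reductase, by -0.46 and -0.23. Fas, a death receptor gene, was above 0 in both pairs (0.11 and 0.28). Mdm2, the ubiquitin ligase gene that p53 induces against itself, differed by -0.14 and 0.16.

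Markers of other cell types also differed with genotype. Of 10 measured erythroid markers 7 passed the limit, with medians of KO minus WT of 0.85 with LPS and XCL1 and 0.63 with LPS, and 4 of the 7 were called higher in each pair, where 1.65% and 0.988% of all genes were. The median signal of the 10 was 6.43 and 6.38 in KO against 5.51 and 5.58 in WT. Car1, the carbonic anhydrase gene of red cells, differed by 1.29 and 1.29, while Klf1, Epor and Gata1 lay below the limit on all arrays. The 13 neutrophil precursor markers had medians of 0.38 and 0.21, and signal medians of 6.24 and 6.28 in KO against 6.39 and 6.36 in WT. Above 0 were 9 and 10 of the 13, against 43.1% and 39.7% of all genes. Called higher were 4 with LPS and XCL1 (Ltf, Chil3, S100a8 and S100a9) and 2 with LPS (Camp and Chil3), against the same 1.65% and 0.988%. Others of the list were not raised in both pairs. Mpo differed by -0.05 and 0.14, Elane by 0.20 and -0.07, Prtn3 by -0.15 and -0.08, and Ctsg by -0.12 and -0.15. The 6 progenitor markers past the limit had medians of 0.10 and 0.01, none called, with signal medians over all 10 of 5.67 and 5.74 in KO against 5.69 and 5.69 in WT, and Cd34, Hoxa9, Meis1 and Prom1 below the limit on every array. The 10 B cell markers had medians of -0.61 and -0.47, with signal medians of 7.47 and 7.57 in KO against 8.19 and 8.10 in WT. All were below 0 in both pairs, where 43.1% and 39.7% of all genes were above it. Of the 10, 5 and 3 were called lower (against 1.79% and 1.01% of all genes). The 8 T cell markers past the limit had medians of -0.43 and -0.43, with signal medians of 6.33 and 6.33 in KO against 6.79 and 6.95 in WT. All of these too were below 0 in both pairs, and 2 of the 8 were called lower in each (against the same 1.79% and 1.01%). The 7 plasmacytoid DC markers past the limit had medians of -0.47 and -0.35, and signal medians of 8.41 and 9.14 in KO against 9.06 and 8.98 in WT. This list was split. In both pairs 3 of the 7 (Bst2, Klk1 and Tcf4) were above 0 and 4 (Siglech, Ly6d, Ccr9 and Spib) below, against 25.3% and 42.4% of all genes. With LPS and XCL1, 1 was called higher (Bst2) and 1 lower (Ly6d), against 1.65% and 1.79% of all genes. With LPS 1 was called lower (Spib, against 1.01%). The 10 macrophage and monocyte markers past the limit had medians of 0.09 and 0.13, with signal medians over all 11 measured of 6.96 and 6.95 in KO against 7.12 and 7.19 in WT. Fcgr1, an Fc receptor gene, was the 1 of 10 called in each pair, higher by 1.19 and 1.00. Of all genes 1.65% and 0.988% were called higher. The part of these cell types in the small differences of cell cycle genes was not tested.

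Adding XCL1 to LPS asked whether the chemokine alters the cycle genes in cells with and without its receptor. In KO the 34 members lay between -0.36 and 0.42, with a median of 0.06 against 0.04 for all genes, and 2 of 34 reached 0.32 upward (5.93% of all genes did) and 1 downward (4.04%). They were Cdc20, with 6.95 with XCL1 against 6.52 without, Cdk1, with 6.97 against 6.61, and Tyms, with 6.85 against 7.21. Bub1b lay just under it. In WT the members lay between -0.29 and 0.22, with a median of 0.04 against 0.03 for all genes, and none reached even 0.32, against 7.25% of all genes. The lowest value was that of Ttk, with 5.96 with XCL1 against 6.25 without, and the highest that of Nusap1, with 7.22 against 7.0. The G2/M median was 0.01 in KO and 0.05 in WT, and the S phase median 0.08 in KO and 0.03 in WT, so G2/M lay 0.07 below S phase in KO, and in WT 0.01 above it. Centring the arrays took 0.07 off each XCL1 difference, so values between 0 and 0.07 turn negative with that scaling.

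The direction of the XCL1 difference was often not shared by the genotypes. Above 0 in both were 11 of 34 members (32.4%) and below 0 in both 3 (8.82%), against 37.3% and 19% of all genes. The sign differed between KO and WT in 20 of 34 members (58.8%), against 43.5% of all genes, and Pearson's r between both XCL1 differences over the 34 members was -0.15, against 0.13 over all genes. In KO all 6 MCM genes were above 0, from 0.03 for Mcm2 to 0.25 for Mcm3, and in WT Mcm2, Mcm3 and Mcm5 were (0.17, 0.05 and 0.01) while Mcm4, Mcm6 and Mcm7 were not. The XCL1 effect in KO minus that in WT was largest for Bub1b (0.48), from 0.32 in KO and -0.16 in WT. It was 0.44 for Cdk1, 0.41 for Ttk and -0.42 for Tyms, so 3 members were beyond 0.32 upward (8.6% of all genes were) and 1 downward (7.86%). Each of these values holds the same 4 arrays as the genotype differences, and the spread between probe sets of a gene was 0.261 on this scale. Cenpe, Kif11 and Tpx2, which differed between the genotypes, hardly differed with XCL1, by -0.03, 0.01 and 0.01 in KO and 0.01, 0.05 and 0.03 in WT. Nusap1, which also differed between the genotypes, differed more with XCL1, by 0.16 in KO and 0.22 in WT. Cdkn1a differed by -0.13 in KO and -0.08 in WT.

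**Figure D4:**
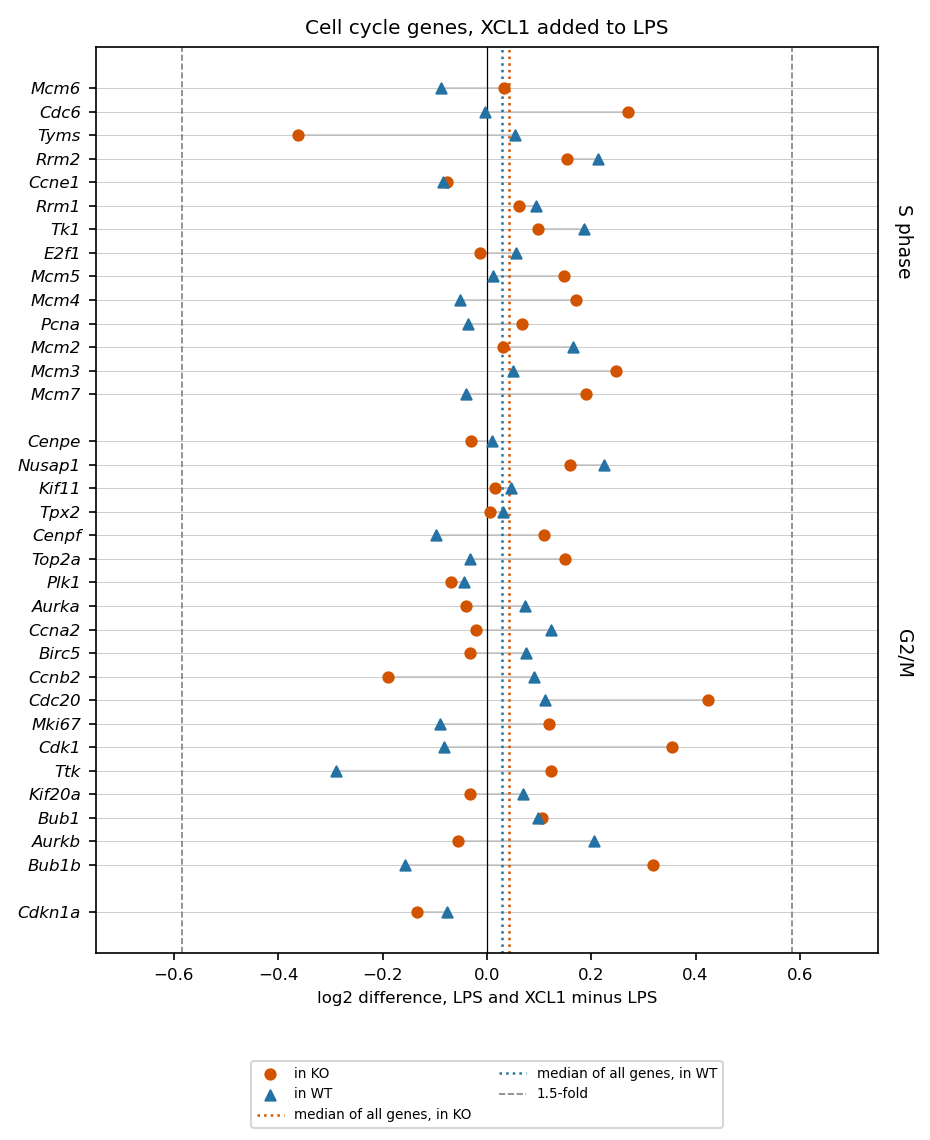
Log2 difference of LPS and XCL1 minus LPS (x axis) of each measured cell cycle gene (y axis), circles in KO and triangles in WT, each a difference between 2 single arrays. Dotted lines are the medians of all genes (0.04 and 0.03) and dashed lines mark 1.5-fold. The marks of 20 genes fall on opposite sides of 0, and none passes 1.5-fold.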

How the data were processed

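Per the labels' protocols, RNA isolated in TRIzol was made into biotin-labelled sense cDNA for MoGene 2.0 ST arrays. The authors deposited log2 RMA signals of 41345 probe sets, as the labels name them. RMA equalises the arrays, so a shift shared by most genes cannot be seen. The sources used here name no software or annotation build. Probe sets were named from the platform's annotation, 23521 with 1 symbol, 1814 with several (not used) and 16010 unnamed here. RefSeq (GRCm38.p6) held 23328 of them by gene ID and changed 0 symbols. Protein-coding genes other than predicted, unnamed and olfactory receptor genes were kept, with the probe set of highest mean for a gene. Differences between single arrays were counted at 1.5-fold with no test, in Python 3.11.15 and pandas 2.3.3. The spread between probe sets is the pooled SD of the difference over probe sets of a gene past the limit, which also holds true differences between transcripts. The counting was tested on simulated data. Alternatives were thresholds of 2-fold and of 0.32 on the log2 scale, no signal limit or a limit of 6.91 (the 75th percentile), cyclic loess (limma 3.58.1, span 0.7, 3 iterations), centring, the mean of probe sets, and raising dim signals to the limit. The cell cycle members and all lists were chosen with earlier results of these data known. All members were named, with up to 4 genes of another list that were called. The promoters shown, and genes of other lists that differed by under 1.5-fold, were picked with their values in view.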

Additional observations from a re-analysis of the deposited data

Results flagged for a closer look

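No cell cycle gene moved in opposite directions in 2 pairs of arrays by more than the spread between probe sets in each. Of 29 called genes of the other lists, 3 did, and none of these differences was tested. Those 29 were checked because they had been called in a comparison, while no member had been, so these counts cannot be compared. The share over all genes was not computed. Xcr1 differed with XCL1 by -0.43 in KO and 0.77 in WT. S100a8, a neutrophil granule gene, differed by 0.61 in KO and -0.25 in WT. Lyz2, a lysozyme gene of myeloid cells, differed for KO minus WT by 0.43 with LPS and XCL1 and by -0.23 with LPS.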

How the results depend on the processing

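No member was called in any comparison under any alternative at 1.5-fold or 2-fold. At 0.32 on the log2 scale, 3 were called for XCL1 in KO, 0 for XCL1 in WT, 4 for KO minus WT with LPS and XCL1, 5 with LPS, and 4 for the difference between XCL1 effects. Centring each array added 0.10 to genotype differences, giving medians of 0.26 and 0.26 for G2/M genes and 0.16 and 0.16 for S phase genes with LPS and XCL1 and with LPS. It took off 0.07 from XCL1 differences, to -0.051 (G2/M) in KO and -0.025 (G2/M) and -0.040 (S phase) in WT, turning their sign. With the limit at the 75th percentile, which left 11 G2/M and 10 S phase genes, the S phase median with LPS was -0.016 and the G2/M excess 0.23. Over these alternatives that excess ran from 0.06 to 0.16 with LPS and XCL1 and from 0.10 to 0.23 with LPS. Counts over all genes, in the order XCL1 in KO, XCL1 in WT, KO minus WT with LPS and XCL1, KO minus WT with LPS, and the difference of XCL1 effects, were 107, 59, 376, 218 and 313. They were 5, 2, 40, 22 and 18 at 2-fold, 1090, 792, 2161, 1620 and 1799 at 0.32 (log2), and 25, 11, 191, 101 and 72 at the stricter limit. Without a limit they were 213 and 174 for XCL1, 338 for KO minus WT with LPS and 717 for the difference. With dim signals raised the XCL1 counts were 64 in KO and 26 in WT and that of the difference 203. The mean of probe sets left out Rrm2. No paired analysis was possible with 1 array a group. An additive fit of genotype and treatment, which would take their interaction as error, was not run.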

Other observations

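Some genes of G1 control, and the mitosis gene Gtse1, all outside the member set, differed evenly in both genotype pairs below 1.5-fold. They were picked for this after looking at the values, and not all such genes are given. Ccnd2, a D-type cyclin gene, gave 11.82 and 11.86 in KO with LPS and XCL1 and with LPS, against 11.52 and 11.55 in WT, differing by 0.30 and 0.31. Cdkn1b, the p27 inhibitor gene, differed by 0.24 and 0.26, and Rbl1, the p107 pocket protein gene, by 0.24 and 0.25. Cdc25a, a phosphatase gene of S phase entry, differed by -0.30 and -0.33. Gtse1, a mitotic gene that restrains p53, differed by -0.40 and -0.37, opposite in sign to most of the other mitosis genes.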
